A study of Rattus norvegicus with 6 samples.

Results

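Genes of sympathetic neurons were present at very unequal levels in the 6 libraries of aneurysmal aorta, and the unequal levels did not follow treatment. The 9 genes described are the noradrenaline-synthesis enzymes Dbh and Th, the transcription factor Phox2a, the nicotinic receptor subunit Chrna3, the intermediate filament genes Nefl, Nefm and Prph, the exocytosis gene Snap25 and the deubiquitinase gene Uchl1. They were picked by symbol, with earlier results of these libraries known, from a table of 24988 genes. All 9 are in the table, and all 9 passed the filter on low counts. Each passed through libraries of both groups, since untreated replicate 1 and treated replicates 1 and 3 held counts of every one of them.

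The material was abdominal aorta with aneurysm from Sprague-Dawley rats, sequenced as total RNA. In one group the aneurysm was left without treatment (3 libraries), and in the other it was treated with NP, a targeted nanotherapy by the series title (3 libraries). Both groups carried an aneurysm, and no aorta without one was analysed here. The sources used here do not give the composition, dose or timing of NP, the way the aneurysm was made, or the age of the rats. Since the labels do not tie libraries to separate rats, the spread that p-values measure may be technical.

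Sympathetic neurons sit in ganglia along the aorta and send unmyelinated axons into the outer vessel wall, where they release noradrenaline onto smooth muscle. Th converts tyrosine to DOPA, the rate-limiting step of catecholamine synthesis, and Dbh converts dopamine to noradrenaline inside the vesicle. Most of a neuron's mRNA lies in its cell body. In whole tissue, fewer neurons and less RNA per neuron cannot be told apart.

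Total counts ranged from 26100468 to 30939002 per library, and 18324 to 19025 genes had a count above 0. A count of 0 allows a level of up to 3 counts, which is 0.0991 to 0.109 CPM (counts per 1000000 of the TMM-scaled library size) depending on the library. Every library had fewer genes with 1 count than with 2, so it is unclear what 1 count represents, and floors and counting intervals cover counting error at face value. Untreated replicate 1 and treated replicate 3 stood apart from the other libraries in neuronal genes. Summed CPM of the 9 genes was 212 in untreated replicate 1, 21.0 in untreated replicate 2 and 12.7 in untreated replicate 3. In treated replicates 1, 2 and 3 it was 87.5, 15.9 and 197. The 2 highest libraries were thus 1 from each group, and each group also held a library near the bottom.

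The enzymes of noradrenaline synthesis ranged widely, and Dbh had the widest range of the 9. Dbh was counted 863, 38 and 0 times in untreated replicates 1, 2 and 3, which is 29.1, 1.38 and 0 CPM. In treated replicates 1, 2 and 3 it was counted 301, 23 and 1167 times, or 10.9, 0.807 and 41.1 CPM. Treated replicate 3 was 414-fold higher than untreated replicate 3 when the library at 0 was set to the floor of 3 counts, and the groups overlapped. Th had counts of 422, 25 and 0 in untreated libraries, or 14.2, 0.907 and 0 CPM. In treated libraries its counts were 107, 8 and 489, or 3.88, 0.281 and 17.2 CPM. The order of the 6 libraries was the same for Th as for Dbh: treated 3, untreated 1, treated 1, untreated 2, treated 2, untreated 3. At 8 counts in treated replicate 2, the exact 95% Poisson interval of Th ran from 3.45 to 15.8 counts, and in untreated replicate 2 (25 counts) it ran from 16.2 to 36.9.

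The 250 bases before the start of Th and Dbh are shown because these enzyme genes moved together across libraries, with Prph beside them as a gene that kept a level in every library. They come from RefSeq (GRCr8), run 5′ to 3′ on the gene's own strand, and carry capitals where a searched motif matches.
Th, chr1:207508219-207508468, minus strand: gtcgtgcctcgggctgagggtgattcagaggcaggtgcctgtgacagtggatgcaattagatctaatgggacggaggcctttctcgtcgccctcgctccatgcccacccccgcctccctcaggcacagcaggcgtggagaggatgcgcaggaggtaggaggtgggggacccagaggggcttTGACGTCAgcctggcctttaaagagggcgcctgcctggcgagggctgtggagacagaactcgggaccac
Dbh, chr3:30886078-30886327, plus strand: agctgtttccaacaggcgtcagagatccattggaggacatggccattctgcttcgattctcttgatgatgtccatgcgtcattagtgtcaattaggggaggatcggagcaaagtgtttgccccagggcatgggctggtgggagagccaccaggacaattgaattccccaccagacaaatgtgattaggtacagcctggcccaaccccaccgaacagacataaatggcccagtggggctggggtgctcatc
Prph, chr7:132097039-132097288, plus strand: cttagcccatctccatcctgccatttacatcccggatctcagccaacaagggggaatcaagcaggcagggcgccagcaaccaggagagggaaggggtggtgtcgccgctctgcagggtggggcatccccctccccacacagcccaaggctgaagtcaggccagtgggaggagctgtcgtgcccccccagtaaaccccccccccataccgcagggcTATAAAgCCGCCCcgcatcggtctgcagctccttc
A match to TGACGTCA, the cyclic AMP response element, is in Th, from base 69 to base 62 before its start, and in 1.59% of the 33469 upstream windows of the same length. The capitals in Prph are a TATA box, TATAAA, from base 35 to base 30 before its start, and a GC box, GGGCGG, read on the opposite strand. TATAAA occurs in 12.9% of all windows and GGGCGG in 30.5%. Other motifs searched on both strands were TGAGTCA (in 4.05% of windows), the homeodomain core TAATTA (4.86%), the left and right parts TTCAGCACC (0.305%) and GGACAG (18.2%) of the REST site, and CAGCTG (12.0%). None of these letters is in the Dbh window, and no matches overlapped one another in the 3 windows shown. Windows were found for 6 of the 9 genes, all but Nefl, Nefm and Snap25. Among the 6, the cyclic AMP response element was in 1, TATAAA in 2, GGGCGG in 4 and GGACAG in 1, and a match is a description of letters, not of binding.

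**Figure D1:**
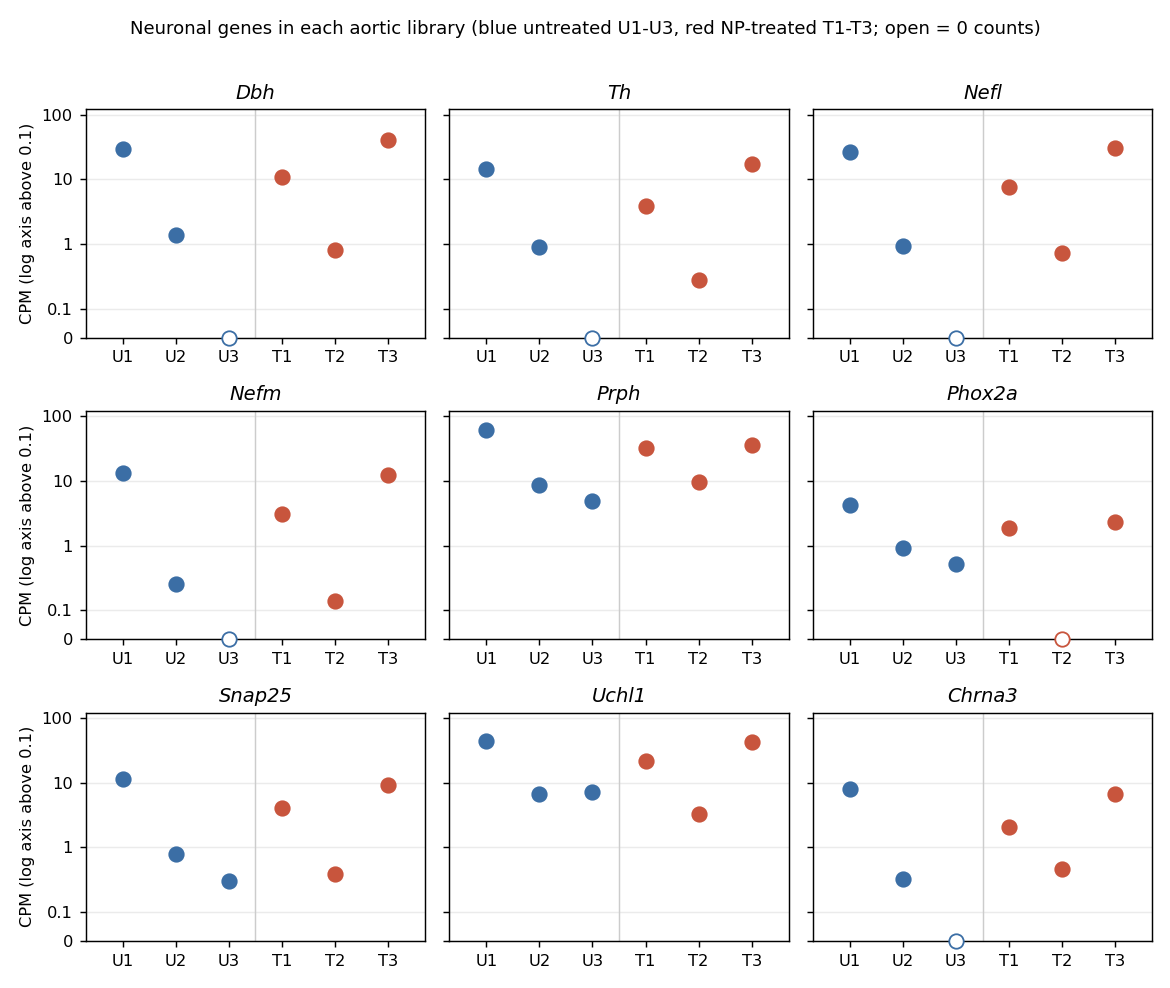
CPM of the 9 genes (log axis above 0.1) in untreated replicates U1 to U3 (blue) and NP-treated replicates T1 to T3 (red), 1 point per library, with open points for 0 counts. In every panel U1 and T3 are the 2 highest libraries, T1 comes next, and U2, U3 and T2 lie low, so each group spans the range.

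Phox2a, the homeodomain factor that drives Dbh and Th expression in noradrenergic neurons, was low throughout. It had 4.25, 0.907 and 0.529 CPM in untreated replicates 1, 2 and 3, and 1.89, 0 and 2.36 CPM in treated replicates 1, 2 and 3. Unlike Dbh and Th, it had a count of 0 in treated replicate 2 and of 16 in untreated replicate 3. Phox2a overlaps Inppl1 in the RefSeq annotation of GRCr8, and Inppl1 ranged from 51.4 to 75.4 CPM over the libraries. Inppl1 was highest in treated replicate 2 (2150 counts), the library where Phox2a had a count of 0. Untreated replicate 3, with 16 counts of Phox2a, had fewer counts of Inppl1 (2008). Low Phox2a counts thus did not rise with Inppl1 between these libraries. Without a stated strand setting, reads of the neighbour cannot be separated from low Phox2a counts, and their share was not tested.

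Chrna3 encodes the ligand-binding subunit of the nicotinic receptor by which ganglion cells receive preganglionic input. Its CPM values were 7.92, 0.326 and 0 in untreated libraries and 2.03, 0.456 and 6.73 in treated libraries. Chrnb4, the subunit that pairs with it, had 2.19, 0.363 and 0.0991 CPM untreated and 0.218, 0 and 2.22 CPM treated. Both subunits were highest in untreated replicate 1 and treated replicate 3, while treated replicate 1, next in order for Chrna3, was lower than untreated replicate 2 for Chrnb4.

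The neurofilament genes followed the enzymes. Nefl, the light neurofilament chain of axons, had 26.8, 0.943 and 0 CPM untreated and 7.51, 0.737 and 30.0 CPM treated. Nefm, the medium chain, had 13.04, 0.254 and 0 CPM untreated and 3.05, 0.140 and 12.3 CPM treated. Both were highest in untreated replicate 1 and treated replicate 3, and neither was counted in untreated replicate 3. Prph, the peripheral neuron filament peripherin, was counted in all 6 libraries. It had 60.6, 8.74 and 4.83 CPM untreated and 32.7, 9.75 and 36.4 CPM treated. Its highest library was 12.6 times its lowest. With libraries at 0 set to the floor of 3 counts, the same ratio was 303 for Nefl and 132 for Nefm.

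Snap25, a SNARE of the vesicle fusion machinery, had 11.4, 0.798 and 0.297 CPM untreated and 3.99, 0.386 and 9.12 CPM treated. Uchl1, an abundant neuronal ubiquitin hydrolase also made outside neurons, had 44.7, 6.78 and 7.07 CPM untreated and 21.6, 3.33 and 42.3 CPM treated. Snap25 ranged 38.2-fold and Uchl1 13.4-fold over the libraries, so Uchl1 and Prph had the narrowest ranges of the 9. Uchl1 overlaps Apbb2 in the annotation, which lay between 3.70 and 11.3 CPM, so its low values carry the same limit of strand as Phox2a. Nefm, Snap25 and Chrna3 overlap genes with LOC symbols there, whose levels were not examined, so their low values may carry it too.

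The levels can be compared between genes on the FPKM scale, which divides by gene length. Uchl1 and Prph were the 2 highest of the 9 in every library, at FPKM of 35.4 and 29.2 in untreated replicate 1 and 5.27 and 2.18 in untreated replicate 3. Chrna3 was lowest in untreated replicate 1 (2.05 FPKM) and treated replicate 1 (0.439 FPKM). Th stood at 0.617, 0.443 and 0.531 of the Dbh FPKM in the 3 libraries with the most of both, untreated replicate 1 and treated replicates 1 and 3. Nefm stood at 0.541, 0.450 and 0.451 of Nefl in those 3. In untreated replicate 2 and treated replicate 2, where counts were low, Th stood at 0.834 and 0.401 of Dbh and Nefm at 0.292 and 0.194 of Nefl. The FPKM of Prph was 2.65, 3.78 and 1.13 times that of Dbh in the first 3 libraries, and 8.33 and 15.9 times in the latter pair. Over these 5 libraries the proportion of Prph to Dbh thus spanned a wider range than the other proportions.

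**Figure D2:**
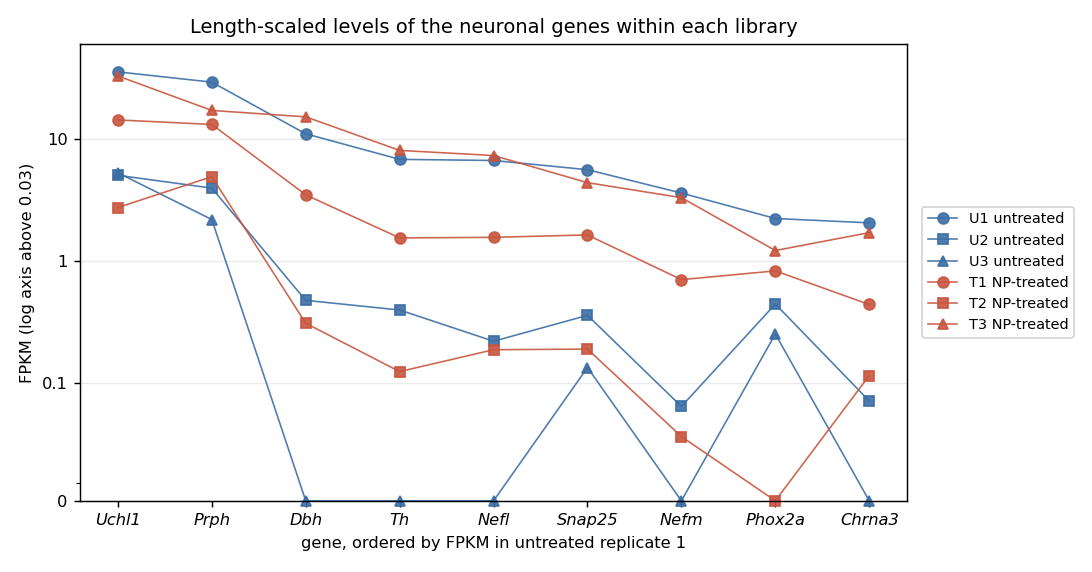
FPKM of the 9 genes (log axis above 0.03), ordered by level in untreated replicate 1, with 1 line per library (blue untreated, red NP-treated). The lines of untreated replicate 1 and treated replicate 3 run together at the top, and in the low libraries Uchl1 and Prph stay at 2.18 FPKM or above while the enzymes and neurofilaments fall to 0.474 FPKM or less.

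Relative to untreated replicate 1, the 9 genes had a median CPM of 94.0% in treated replicate 3, with a range from 55.6% for Phox2a to 141% for Dbh. In treated replicate 1 the median was 35.1%, from 23.4% for Nefm to 53.9% for Prph. The median was 6.38% in untreated replicate 2, 2.78% in treated replicate 2 and 0% in untreated replicate 3. In untreated replicate 3 the 5 genes at 0 were Dbh, Th, Nefl, Nefm and Chrna3, while Uchl1 kept 15.8%, Phox2a 12.5%, Prph 7.96% and Snap25 2.62%.

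No gene of the 9 differed between treated and untreated libraries by edgeR's quasi-likelihood test across all 16522 genes tested. The adjusted p was 0.999992 for each, with 0 of 9 at an unadjusted p under 0.05. Over all genes, 0 passed an adjusted p of 0.05 (0% called), against 319 (1.93%) at an unadjusted p under 0.05. DESeq2 called 1 gene higher and 28 lower, limma-voom called 0, and none of the 9 was among the calls of any tool run. The groups overlapped in 9 of 9 genes, where 5.67% of all genes had groups that did not overlap, 2.47% with all treated libraries above and 3.2% with all below.

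Dbh averaged 10.2 ± 16.4 CPM untreated and 17.6 ± 21.0 CPM treated (mean ± SD, 3 libraries in each group). The log2 fold change, treated minus untreated, was 0.79 (SE 1.80) with a 95% interval from -3.42 to 5.01. Th averaged 5.04 ± 7.96 CPM untreated and 7.13 ± 8.92 CPM treated, with a log2 fold change of 0.50 (SE 1.77). Nefm had the largest standard error, with a log2 fold change of 0.22 (SE 1.89), and Prph the smallest, with 0.09 (SE 0.93) and an interval from -2.10 to 2.28. Nefl, Snap25, Uchl1 and Chrna3 had log2 fold changes of 0.47, 0.12, 0.20 and 0.16, and Phox2a had -0.42 (SE 1.33). In every one of the 9 the SD within each group was larger than the difference between the group means. The intervals were wide enough to hold a 4-fold difference in either direction for every gene, so these libraries cannot show whether treatment changed the genes by that much.

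The spread was large beside other genes. The median standard error of the 9 was 1.65 on the log2 scale, against 0.33 over all genes tested. That of Prph, the smallest, was at the 94.5th percentile of all genes and that of Nefm at the 99.9th. The median log2 range from the lowest to the highest library was 6.84 for the 9 genes and 1.04 for all genes.

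The sign of the treatment contrast changed with the libraries left out. Without untreated replicate 1 all 9 genes had positive log2 fold changes, from 0.98 for Phox2a to 5.33 for Nefm, with a smallest adjusted p of 0.997. Unadjusted p by edgeR was then 0.0206 for Prph, 0.0434 for Nefm and 0.0444 for Chrna3, and above 0.05 for the rest. In that fit 565 of 16522 genes were under 0.05. Without treated replicate 3 all 9 had negative ones, from -1.47 for Nefm to -0.22 for Prph, again with a smallest adjusted p of 0.997. Leaving out untreated replicate 2 turned the sign of 6 of the 9, and untreated replicate 3 that of 7, all to negative values. With untreated replicate 1 and treated replicate 3 both left out, a choice made after the values were seen, the 9 were positive, from 0.39 for Phox2a to 3.63 for Nefm, and 0 were called.

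**Figure D3:**
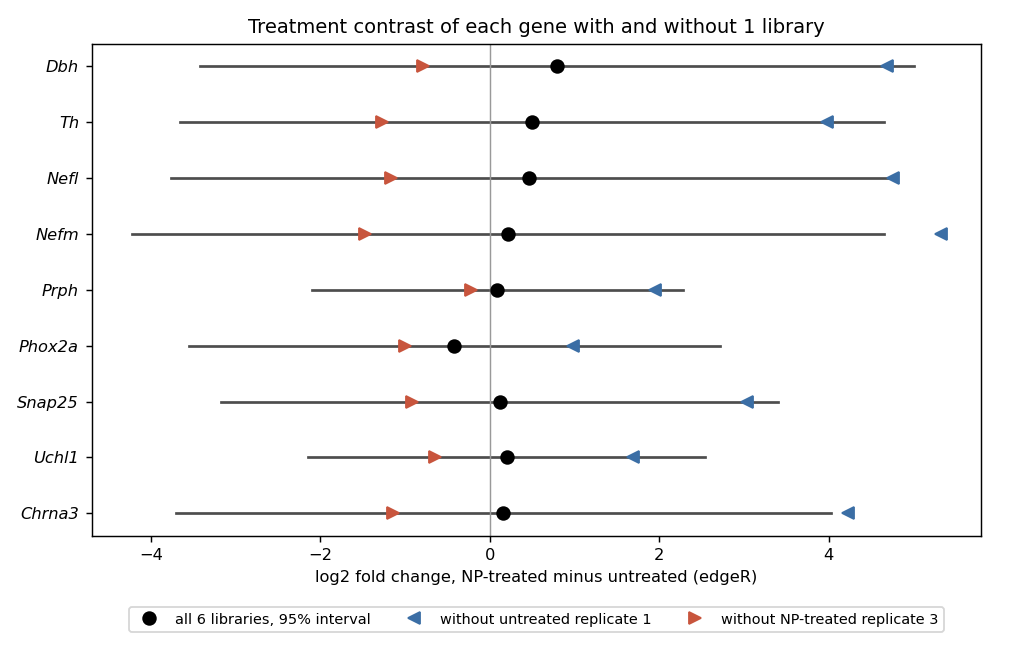
Log2 fold changes (NP-treated minus untreated, edgeR) of the 9 genes with all 6 libraries (black points, lines for 95% intervals) and after leaving out untreated replicate 1 (blue) or NP-treated replicate 3 (red). Every interval spans 0, every blue point lies right of 0 and every red point left of it.

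Other markers of sympathetic neurons were set beside the 9 genes. Their list was also chosen with earlier results of these libraries known, so this is not a separate check of the label. Slc6a2, the noradrenaline reuptake transporter, had 20.7, 1.56 and 0.562 CPM untreated and 4.97, 1.30 and 17.2 CPM treated. Ddc, the enzyme between Th and Dbh, had 8.19, 1.20 and 0.661 CPM untreated and 3.01, 1.65 and 7.85 CPM treated. Both had the same 3 highest libraries as the 9 genes. Slc18a2, which loads monoamines into vesicles, had those 3 highest libraries too, over a narrower range, with 10.5, 6.17 and 7.11 CPM untreated and 7.22, 5.90 and 13.2 CPM treated.

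Some markers of the list did not follow. Npy, a peptide co-released with noradrenaline, had 87.9, 3.41 and 202 CPM untreated and 69.1, 33.6 and 125 CPM treated. Its highest library was untreated replicate 3, which had no count of Th or Dbh. Gata3, a factor of noradrenergic neurons that T cells also express, was between 0.834 and 5.28 CPM and second highest in untreated replicate 2. Hand2 was highest in untreated replicate 1 at 2.12 CPM and at most 0.871 CPM elsewhere.

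Several defining markers of other neuron types were at or near 0, and others of the same lists were not. Tac1 and Prdm12 of sensory neurons were at 0 in all 6 libraries, and Calca, the sensory peptide CGRP, had 2 counts in untreated replicate 2 and 5 in treated replicate 1 and none elsewhere. Chat, which makes acetylcholine, was at 0 in all 6, and Vip had at most 6 counts. Slc5a7, the choline transporter of cholinergic neurons, had 45 counts (1.52 CPM) in untreated replicate 1, 8 and 9 in treated replicates 1 and 3 and 0 elsewhere. Scn9a, a sodium channel of sensory and sympathetic neurons, had 5.63, 0.326 and 0.0991 CPM untreated and 0.834, 0.526 and 4.47 CPM treated. Adcyap1, the peptide PACAP, had 3.47, 0 and 0 CPM untreated and 1.12, 0.0702 and 0.669 CPM treated. These 3 were thus highest in libraries where the 9 genes were high, while the sensory receptor genes Trpv1 and P2rx3 were counted in all 6 libraries at 0.472 to 1.52 CPM with other orders. These 5 genes were chosen after their values were seen. Pnmt, which makes adrenaline in the adrenal medulla, had 5 counts or fewer in every library and 0 in the treated ones. Of 15 sensory markers 7 passed the filter, and the summed CPM of all 15 was 55.6 to 97.7 in untreated and 27.5 to 78.3 in treated libraries, most of it from Ntrk2, Ntrk3 and Piezo2, receptor and channel genes that other cells make too. Of 8 cholinergic and other autonomic markers 3 passed, and the summed CPM of all 8 was 2.78 to 14.2 untreated and 3.92 to 12.3 treated. Of 7 measured adrenal markers 4 passed, and all 7 summed to 20.0 to 34.9 CPM untreated and 14.0 to 26.8 CPM treated, most of it from Cyp21a1 and Fdx1. That sum was lowest in treated replicate 3.

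**Figure D4:**
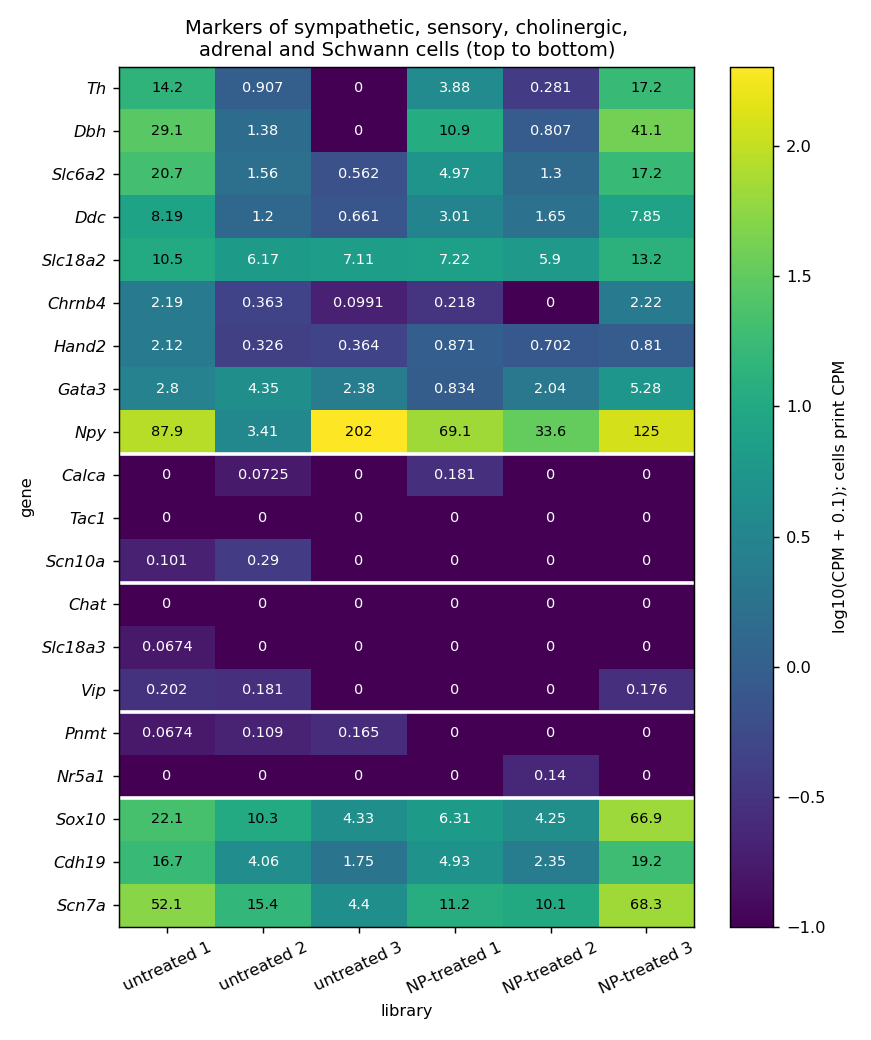
CPM of defining markers in each library, printed in the cells and coloured by log10(CPM + 0.1), for sympathetic neurons (Th to Npy), sensory neurons (Calca to Scn10a), cholinergic neurons (Chat to Vip), the adrenal gland (Pnmt, Nr5a1) and Schwann cells (Sox10 to Scn7a). Th, Dbh, Slc6a2 and Ddc are high in untreated replicate 1 and NP-treated replicate 3, and the Schwann cell markers peak in NP-treated replicate 3. The sensory, cholinergic and adrenal markers shown are at 0.29 CPM or less throughout, but they are part of longer lists. Of list members not drawn, Prdm12 was at 0 throughout. Scn9a and Avil each had 5.63 CPM in untreated replicate 1, and Ache had 8.38 CPM in NP-treated replicate 3.

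Genes of Schwann cells, the glia of peripheral nerve, moved partly with the neuronal genes. Sox10, a transcription factor of the Schwann cell lineage, had 22.1, 10.3 and 4.33 CPM in untreated replicates 1, 2 and 3 and 6.31, 4.25 and 66.9 CPM in treated replicates 1, 2 and 3. Treated replicate 3 had 3.03 times the Sox10, 1.15 times the Cdh19 and 1.31 times the Scn7a of untreated replicate 1, 3 examples chosen after their values were seen, while the 9 neuronal genes were at a median of 94.0% there. Untreated replicate 2 had more Sox10 than treated replicate 1, the reverse of their order for Dbh and Th. Of 21 Schwann cell genes 19 passed the filter. The summed CPM of the 20 measured ran from 440 to 968 untreated and from 555 to 1629 treated. Of the 19, 18 had a fold above 1 (9189 of 16522 over all genes), and 0 were called. Their median log2 fold change was 0.57 (0.04 over all genes). The list median of centred log2 CPM was 0.84, -0.17 and -1.01 in untreated replicates 1, 2 and 3. In treated replicates 1, 2 and 3 it was -0.40, -0.78 and 1.66, so only replicate 3 was high among the treated.

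Other neuronal genes were read from lists of known roles. In 21 of 28 genes of the neuronal cytoskeleton and growth list the 2 highest libraries were untreated replicate 1 and treated replicate 3, as in all 9 genes above. The same held in 18 of 25 synaptic vesicle and exocytosis genes, 6 of 12 dense core granule genes, 10 of 21 further noradrenergic genes and 12 of 19 Schwann cell genes. Over all genes tested it held in 14.2%, and this library pair was chosen after the values were seen. In the adipocyte, lymphocyte, and catecholamine receptor and clearance lists it held in 0 of 8, 0 of 8 and 0 of 14. Smooth muscle had 1 of 9, skeletal muscle 1 of 6 and the adrenal list 0 of 4. It held in 3 of 7 sensory neuron, 1 of 3 cholinergic and other autonomic, and 3 of 10 neurotrophic factor genes. By treatment, 0 genes of any of these lists were called higher or lower. Median log2 fold changes were 0.02 for cytoskeleton and growth, 0.01 for synaptic vesicle, 0.18 for dense core granule and 0.07 for noradrenergic genes, beside 0.04 for all genes.

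Within the lists the range ran from neuron-like to flat, with these examples chosen after their values were seen. Nefh, the heavy neurofilament chain, had 14.3, 0.979 and 0.727 CPM untreated and 1.96, 0.246 and 20.9 CPM treated. Syt1, the calcium sensor of vesicle release, had 11.0, 0.544 and 0 CPM untreated and 4.46, 0.772 and 14.3 CPM treated. Chgb, a granule protein, had 7.38, 0.218 and 0.264 CPM untreated and 2.98, 0.351 and 9.54 CPM treated. Vamp2, a release gene that many cell types also express, stayed at 54.3 to 89.1 CPM. Snap25, the SNARE that pairs with Vamp2, thus ranged far more widely than its partner in the same libraries.

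**Figure D5:**
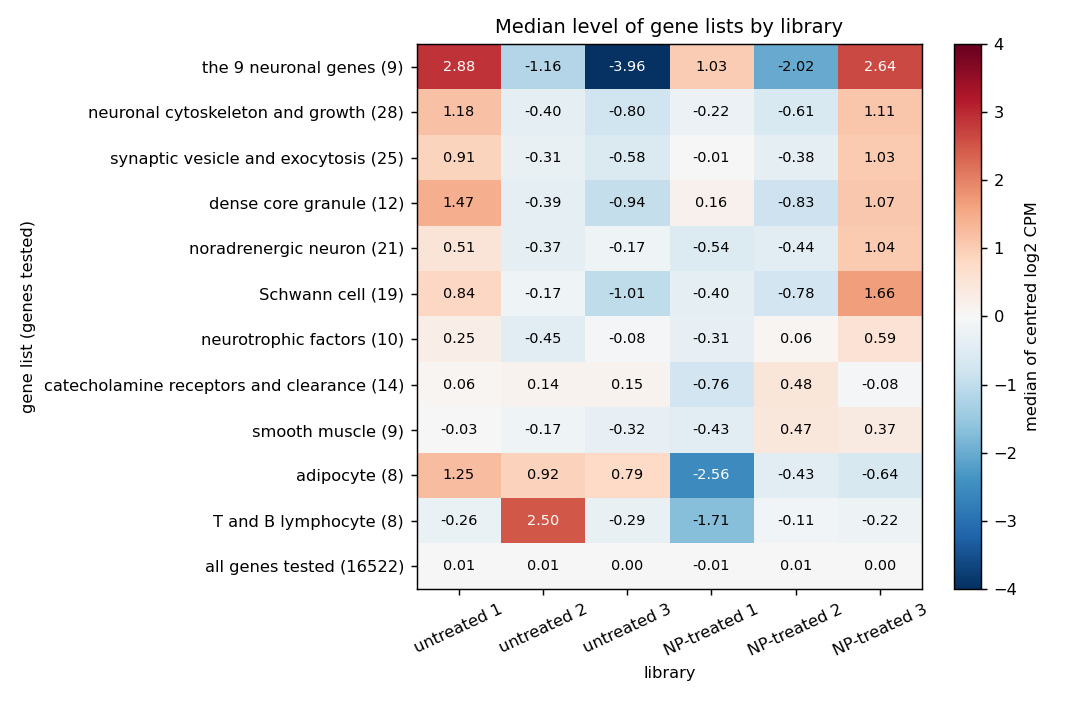
Median over each gene list of log2 CPM after subtraction of every gene's mean over the 6 libraries, with the number of genes tested in brackets. The 9 neuronal genes run from -3.96 in untreated replicate 3 to 2.88 in untreated replicate 1, other neuronal lists and Schwann cell genes share the high libraries untreated 1 and NP-treated 3, and adipocyte and lymphocyte genes have other extremes.

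Other features of the libraries were set beside the neuronal genes. The adipocyte list was at medians of 0.79 to 1.25 in the untreated and -2.56 to -0.43 in the treated libraries. The 2 libraries highest in the neuronal genes thus lay 1 on each side. T and B lymphocyte genes were highest in untreated replicate 2, at a median of 2.50, a library low in neuronal genes. Smooth muscle genes had medians between -0.43 and 0.47, with treated replicates 2 and 3 highest. Mitochondrial transcripts took 12.3%, 12.8% and 9.17% of counts in the untreated libraries and 10.7%, 8.54% and 13.9% in the treated ones, each in order of replicate. That share was lowest in treated replicate 2 and untreated replicate 3, the 2 libraries with the least of the 9 genes, and highest in treated replicate 3, while untreated replicate 2 was high in it and low in neuronal genes. The part of any of these in the neuronal values was not tested.

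Among other genes tested, those most like the mean profile of the 9 included further neuronal genes. Symbols beginning with LOC, RGD, MSTRG, AABR or a date were left out of this ranking. Likeness was the mean absolute difference of centred log2 CPM from that profile over the 6 libraries, for which a flat gene gives 2.12, the median gene 2.13, and the 9 genes themselves 0.27 (Snap25) to 1.22 (Phox2a). The 10 nearest, at 0.19 to 0.43, were Mapk8ip2, Sult4a1, Cdk5r2, Bex2, Elavl2, Ina, Bmerb1, Slc10a4, Stmn2 and Slc6a2. Mapk8ip2, a scaffold of the JNK pathway in neurons, had 4.08, 0.218 and 0 CPM untreated and 1.31, 0.175 and 4.12 CPM treated. Stmn2, a microtubule regulator of growing axons, was the most abundant, with 52.2, 3.12 and 0.661 CPM untreated and 15.3, 0.561 and 30.6 CPM treated. Ina, the neuronal filament alpha-internexin, had 6.60, 0.145 and 0 CPM untreated and 1.995, 0.0702 and 5.60 CPM treated. Elavl2 encodes a neuronal RNA-binding protein, and Cdk5r2 an activator of the neuronal kinase Cdk5. None of the 10 was called by treatment, with unadjusted p-values no smaller than 0.753 by edgeR. They were picked for likeness to a profile that was highest in 1 library of each group, so this is not a separate result.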

How the data were processed

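Counts and FPKM values of 24988 genes in 6 libraries were read from 1 table deposited by the authors. The counts deposited by the authors are whole numbers per gene that had not been normalized, and the FPKM deposited beside them are per length and depth. Reads were filtered with SOAPnuke, per the series design text, and HISAT2 2.0.4 is named in the submitters' processing notes. The sources used here do not give the counting tool, genome build, annotation or strand setting.

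Genes were kept with filterByExpr (minimum count 10), leaving 16522. Treated and untreated libraries were compared with edgeR 4.0.16 in R 4.3.3 (quasi-likelihood test, TMM, group as the only term, Benjamini-Hochberg adjustment over all genes, threshold 0.05). Standard errors were the log2 fold change over the root of F. Centred log2 CPM used a prior count of 2. The fit was tested on simulated data in which every gene had the same relative spread between replicates. That test does not cover genes as variable as the neuronal genes described. Alternatives were DESeq2 size factors, no filter, leaving out each library, a replicate block, DESeq2 1.42.0, limma-voom (limma 3.58.1), and limma on log2(FPKM + 1) and log2(FPKM + 0.1). Total counts were 26100468 to 30939002 per library.

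The 9 genes and all lists were chosen with earlier results of these data known. Genes named by rule are the 9, up to 6 of smallest p-value per list, list genes at 0 in every library, fixed cell type markers, and the 10 genes of usual symbol nearest the mean profile. Other list genes, such as Nefh, Syt1, Chgb and Vamp2, were chosen after their values were seen. Of 250 bases before each RefSeq start (GRCr8), both strands were searched. Some genes of the lists are not reported here by name.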

Additional observations from a re-analysis of the deposited data

How the results depend on the processing

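The log2 fold changes of the 9 genes kept their signs, and 0 of 9 were called, with DESeq2 size factors, no filter on low counts, DESeq2, limma-voom and limma on either FPKM scale. With limma-voom, which averages log values, their median was 2.20, and on log2(FPKM + 0.1) it was 0.83, against 0.20 by edgeR. Leaving out each library in turn, the log2 fold change ran from -0.79 to 4.68 for Dbh, -1.28 to 3.98 for Th, -1.16 to 4.77 for Nefl, -1.47 to 5.33 for Nefm, -0.40 to 1.95 for Prph, -1.005 to 0.98 for Phox2a, -0.92 to 3.03 for Snap25, -0.65 to 1.69 for Uchl1 and -1.14 to 4.22 for Chrna3. Leaving out untreated replicate 2 turned the sign of 6 genes and untreated replicate 3 that of 7, to values between -0.43 and -0.07, and the cause was not tested. With untreated replicate 1 and treated replicate 3 both left out, Phox2a turned to 0.39.

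Over all genes 0 were called higher and 0 lower by edgeR under every leave-out. DESeq2 called 1 higher and 28 lower, limma called 1 lower on log2(FPKM + 1) and 3 lower on log2(FPKM + 0.1), and the cause was not tested. The replicate numbers are not stated to pair rats. Deviations from the group means correlated at -0.17, 0.07 and -0.27 for numbers 1, 2 and 3, and at 0.37 for untreated replicate 1 with treated replicate 3. The deviations of 3 libraries sum to 0 within each group, so their correlations are tied together. These values therefore cannot settle whether the numbers pair rats. With the replicate number as a block 0 genes were called (310 at an unadjusted p under 0.05), and the 9 kept their signs, with a median log2 fold change of 0.49. Low counts limit Th, Nefm, Phox2a, Snap25 and Chrna3 in untreated replicates 2 and 3 and treated replicate 2, each with at most 25 counts there.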

Other observations

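Genes that act on or receive noradrenaline did not share the library pattern of the neuronal genes. Slc22a3, a transporter that clears noradrenaline outside neurons, had 7.82, 11.4 and 6.28 CPM in untreated replicates 1, 2 and 3 and 0.363, 3.68 and 1.41 CPM in treated replicates 1, 2 and 3. Its log2 fold change was -2.22 (SE 0.75), at an unadjusted p of 0.0198 and an adjusted p of 0.999992 by edgeR. Of 14 catecholamine receptor and clearance genes tested, 7 had a fold above 1 and 7 below 1 (9189 and 7333 over all genes). Of these 14, 0 were called, and 2 had all treated libraries below all untreated ones (3.2% of all genes). Those 2 were Slc22a3 and the fat cell receptor gene Adrb3.

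Ret, the receptor kinase for the GDNF family of nerve growth factors, had 5.66, 8.63 and 9.42 CPM untreated and 1.31, 3.58 and 3.42 CPM treated. Its log2 fold change was -1.51, with an unadjusted p of 0.0120. Mc2r, the corticotropin receptor of adrenal cortex and rat fat cells, had 3.40, 1.20 and 0.793 CPM untreated and 0.0726, 0.211 and 0.317 CPM treated, at an unadjusted p of 0.00605. Neither passed the adjusted threshold. The adipocyte list was also lower at its median in all 3 treated libraries, and its part in these values was not tested. Of 10 neurotrophic and guidance factor genes tested 8 had a fold above 1 (9189 of 16522 over all genes) and 0 were called.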
